A study of Mus musculus with 18 samples.

Results

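The first hours of erythroid maturation were read by setting the 3 arrays of G1E-ER4 cells kept for 3 h in 20 nM estradiol against the 3 arrays of the same line before estradiol (0 h), which are 6 of the 18 arrays of a course that runs to 30 h. G1E-ER4 is a mouse line resembling erythroid progenitors, made from G1E cells, whose own Gata1 gene is disrupted, and every array in both groups came from it. It carries GATA1 fused to the hormone-binding part of an estrogen receptor, so that adding estradiol turns the factor on in log-phase cells. No arrays of cells held for 3 h without estradiol were analysed here, so the hormone, the active fusion protein and time in culture cannot be told apart. The 3 arrays of a time are called biological replicates in the labels without saying that they came from separate cultures, so a p-value here reflects the spread among such samples only, some of which may be technical. In such bulk RNA, fewer cells of a type and less RNA per cell cannot be told apart.

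GATA1 is a zinc-finger transcription factor that binds the core letters GATA and is required for red cell precursors to mature. It works with the cofactor FOG1 and with complexes built on TAL1 or LYL1, LMO2 and LDB1. It is known for taking over sites held by GATA2 in early progenitors, for silencing Gata2 and Kit, and for switching on genes of heme, globin and the red cell membrane.

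The level of a gene is given as the deposited log2 expression of its brightest probe set, so a difference of 1 is 2-fold. Across probe sets the 6 arrays correlated with each other at 0.995 to 0.998 within a time and at 0.993 to 0.995 between times, and their medians lay between 4.04 and 4.09. Erythroid markers bore out the label of the line: Tfrc, the transferrin receptor, stood at 12.46 at 0 h, Ermap at 11.90, Klf1 at 11.31 and Epor at 10.12. Alas2 (5.85) and Slc4a1 (6.34), which belong to later stages, were low. The 9 erythroid markers read had a mean level of 9.41 to 9.50 on the 0 h arrays and 9.42 to 9.49 on the 3 h arrays. The mean over 13 granulocyte and macrophage markers was 2.99 to 3.19 at 0 h and 3.00 to 3.17 at 3 h, with 12 of them under 5 at both times, and all 11 lymphoid markers were under 5. The gap between 3′ and 5′ control probe sets, a sign of RNA quality, was 1.89 at 0 h and 1.93 at 3 h for beta-actin and 1.13 and 1.18 for Gapdh.

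At 3 h many genes had moved by a little and few by much. Of 12719 genes tested with limma, 1420 were higher (11.2%) and 1871 lower (14.7%) at an adjusted p under 0.05, which is 25.9% in either direction, and 4694 had an unadjusted p under 0.05. The arrays of both times did not overlap for 46% of all genes tested. Changes of at least 2-fold were made by 64 genes that rose (0.503%) and 108 that fell (0.849%). Scaled instead on the arrays' hybridisation controls, which stood at 11.67 to 12.12 on the 0 h arrays and at 11.79 to 11.89 at 3 h, 463 genes were higher and 285 lower. Which direction holds more of the called genes therefore depends on the scaling. The spread of the controls within a time enters every gene on that scale, so a call lost there need not mean a smaller difference.

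Genes were sorted by brightness, because a low signal near the floor of an array gives an uncertain fold. A gene was placed near the floor where the lower of its 0 h and 3 h means was under 5. It was called bright where both means were at least 5 and the mean of the 6 arrays was at least 7, and intermediate otherwise. Of 7019 bright genes, 1125 rose (16%) and 1356 fell (19.3%), with a median size among the called genes of 0.36 for rises and -0.34 for falls. At least 2-fold were 28 of the rises (0.399%) and 46 of the falls (0.655%). For all 74, selected by size and adjusted p, the arrays of both times did not overlap, as for 46% of all genes tested. With the hybridisation controls as the scale, 308 bright genes were higher and 136 lower. All 74 of the 2-fold genes were called in the same direction on that scale, 64 of them again at 2-fold or more.

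**Figure D1:**
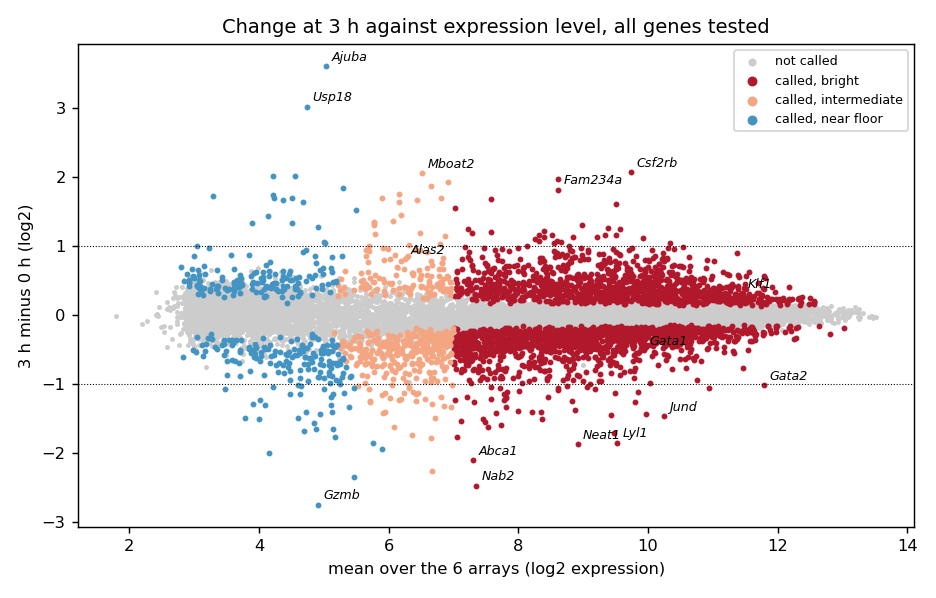
Difference between the 3 h and 0 h means (log2, vertical axis) against the mean level over the 6 arrays (log2, horizontal axis) for all 12719 genes tested, coloured by brightness class where called, with dotted lines at 2-fold. Ajuba and Usp18 rose most but from near the floor, while Csf2rb (2.07) and Nab2 (-2.48) led among bright genes.

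The largest rises of bright genes belonged to cytokine receptor chains. Csf2rb encodes the beta chain shared by the receptors for IL-3, GM-CSF and IL-5, and its level was 8.76, 8.64 and 8.70 on the 0 h arrays and 10.75, 10.76 and 10.80 on the 3 h arrays. All 3 arrays at 3 h were about 2 units above all those at 0 h, a difference of 2.07 (SE 0.059, limma adjusted p = 7.75e-12) or 4.19-fold. Csf2rb2, its mouse-specific neighbour that serves the IL-3 receptor, went from 7.62, 7.57 and 7.68 to 9.48, 9.75 and 9.54, a difference of 1.97 (SE 0.071, adjusted p = 1.05e-10). The groups were again far apart, and a second probe set of Csf2rb rose by 1.96. A probe set that the annotation assigns to both genes rose by 1.23 from a low level of 4.50, so part of the signal of such similar sequences may be shared.

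The next largest bright rises were those of Fam234a, Nxpe2, Atp1b2 and Btg2. Fam234a, a membrane protein, read 7.68, 7.63 and 7.80 at 0 h and 9.53, 9.57 and 9.45 at 3 h, a rise of 1.82 (SE 0.080, adjusted p = 8.32e-10). Nxpe2 read 6.76, 6.86 and 6.58 and then 8.45, 8.46 and 8.35, a rise of 1.68 that brought it from just under the class limit to well above it. Atp1b2, a beta subunit of the sodium-potassium pump, read 8.66, 8.54 and 8.91 and then 10.04, 10.46 and 10.42. Its rise of 1.61 was matched by 1.57 on its second probe set. Btg2, a brake on proliferation, read 6.38, 6.38 and 5.96 and then 7.71, 7.80 and 7.87, a rise of 1.55 with 1.37 on its second probe set. Its 0 h arrays were spread more widely than those of most of these genes, with an SD of 0.24. They still lay wholly below the 3 h arrays, which the rule for ranking required. Pfkm, the muscle-type phosphofructokinase of glycolysis, rose from 8.32 ± 0.11 to 9.63 ± 0.065 (SD, n = 3), a difference of 1.31.

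Of the remaining bright rises named by rank, Slc46a3, a lysosomal transporter, rose by 1.26, Crlf3 by 1.25 and Ninl, a centrosome protein, by 1.25. Strada, the pseudokinase partner of LKB1, rose by 1.21, with rises of 0.98, 1.20 and 1.41 on its other 3 probe sets. Gpr146, an orphan receptor, rose by 1.20, the chromatin reader Phf13 by 1.18, and Stom, the red cell membrane protein stomatin, by 1.16. Stom read 8.75, 8.76 and 8.75 at 0 h and 9.98, 9.84 and 9.93 at 3 h, and 4 of its 5 other probe sets rose by 0.82 to 1.20. The other bright rises of at least 2-fold, listed because they complete the group, ran from 1.16 for Dmxl1 down to 1.0 for Gba2. They were Tmc4, Uhrf1bp1, Lgr4, Specc1, Psen2, Ptdss2, Lrrc57, Crebl2, Icam4, Mtfr1, Ubxn2b and Bach1, besides those 2. Icam4, the Landsteiner-Wiener blood group protein, read 8.12, 7.97 and 8.10 and then 9.15, 9.16 and 9.08. Bach1, a repressor that heme releases from DNA, read 9.78, 9.71 and 9.96 and then 10.82, 10.86 and 10.90. Both genes were higher on all 3 arrays at 3 h than on any at 0 h.

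**Figure D2:**
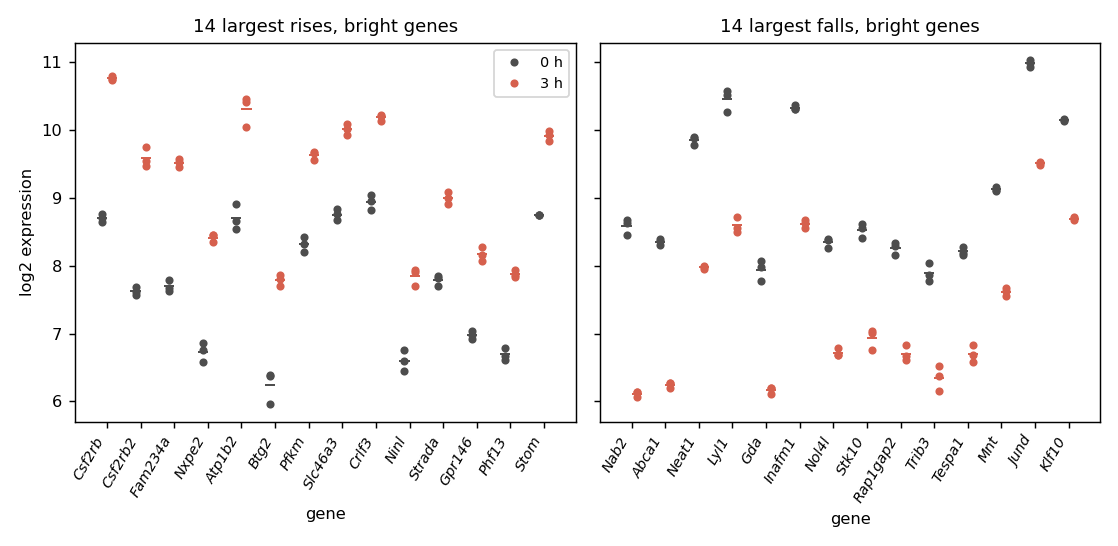
Log2 expression on each array (points) with the mean of the 3 arrays of a time (short lines) at 0 h (grey) and 3 h (red) for the 14 largest rises and 14 largest falls of bright genes. The groups do not overlap for any of the 28 genes, which the rule for naming them required.

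The largest fall of a bright gene was that of Nab2, a corepressor that curbs EGR transcription factors. It read 8.45, 8.68 and 8.64 at 0 h and 6.14, 6.13 and 6.07 at 3 h, a difference of -2.48 (SE 0.19, adjusted p = 1.65e-07) or 5.57-fold. Its 3 h arrays lay within 0.1 of each other and far below those at 0 h. Abca1, the pump that exports cholesterol from cells, read 8.37, 8.39 and 8.30 and then 6.20, 6.27 and 6.27, a difference of -2.11 (SE 0.17, adjusted p = 2.47e-07). Of its other probe sets, which stood at only 2.71 and 3.33 at 0 h, one fell by 0.62 and the other differed by -0.60 without passing the test (adjusted p = 0.0592). Neat1, the noncoding RNA around which paraspeckles form in the nucleus, read 9.89, 9.79 and 9.90 and then 8.0, 7.96 and 7.98. That is a fall of 1.88 (SE 0.098, adjusted p = 2.87e-09) between groups that were each tightly bunched.

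Of the 23 GATA-related and erythroid transcription factors listed, Lyl1, Cbfa2t3 and Gata2 had the largest falls, while the FOG1 gene Zfpm1, Gfi1b and Lmo2 rose. Lyl1, a basic helix-loop-helix factor related to TAL1, read 10.52, 10.27 and 10.58 and then 8.72, 8.51 and 8.56, a difference of -1.86 (SE 0.095, adjusted p = 2.87e-09). Cbfa2t3, the corepressor ETO2 of the same complexes, read 10.78, 10.74 and 10.55 and then 9.29, 9.21 and 9.27, a difference of -1.43, and its other 3 probe sets fell by 0.83, 1.22 and 1.36. Gata2 read 12.30, 12.30 and 12.28 and then 11.30, 11.26 and 11.27. Its fall of 1.02 (SE 0.062, adjusted p = 1.52e-08) was measured on a probe set near the top of the arrays' range, and its second probe set, at 11.0 before estradiol, fell by 1.75. These 3 genes were high at 0 h and lower on every array at 3 h.

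Jund, Klf10, Mnt and Trib3 were also among the 14 largest bright falls. Jund, an AP-1 subunit, read 10.99, 11.04 and 10.94 and then 9.53, 9.52 and 9.49, a fall of 1.47, while a second probe set at a level of only 4.2 rose by 0.51. Klf10, a repressor induced by TGF-beta, read 10.17, 10.13 and 10.16 and then 8.72, 8.67 and 8.71, a fall of 1.45. Mnt, a MAX partner that opposes MYC, read 9.17, 9.12 and 9.10 and then 7.63, 7.56 and 7.67, a fall of 1.51. A second probe set of Mnt, at a level of 3.9, did not fall (0.01). Trib3, a pseudokinase induced by the stress factor ATF4, fell by 1.54, and by 1.22 on its second probe set. The rule for ranking these genes required that the arrays of the used probe set not overlap between the times.

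Among the other ranked falls, the enzyme guanine deaminase (Gda) went from 7.95 to 6.17, a fall of 1.78, and Inafm1 from 10.33 to 8.62. Nol4l fell by 1.63, the kinase Stk10 by 1.59, Rap1gap2, which switches off the small GTPase RAP1, by 1.56, and Tespa1 by 1.51. The remaining bright falls of 2-fold or more, taken as a group after their values were seen, ran from -1.43 for Armcx4 to -1.0 for Reep6. They included the clock-controlled factor Dbp (-1.40), the kinase Dyrk3 (-1.38), the exchange factor Vav1 (-1.20), the ETS repressor Erf (-1.19), the RNA-binding protein Rbm38 (-1.19) and Zfp36l2 (-1.06), which speeds mRNA decay. The rest of that group, each down by 1.03 to 1.41, were Ripor1, Wnk4, Cachd1, Adgre5, Pik3r3, Lrp8, Treml2, Map2k3os, Arhgap45, Jade2, 5033406O09Rik, Ahnak, St8sia4, Kif21b, Sertad1, Midn, Mob3a, Map3k5, Mast3, Bsn, Cnnm1 and Ninj1.

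The promoters of the bright 2-fold genes were searched for the letters AGATAA or TGATAA on either strand, the motif that GATA factors bind. Promoters are RefSeq windows on GRCm38.p6 from 250 bases before to 50 bases after a gene's start, and were found for 21 of the 28 genes that rose and 37 of the 46 that fell. A match was present in 8 of 31 promoters of risers, 25.8%, from 6 genes, and in 2 of 50 promoters of fallers, 4.0%. It was present in 10.8% of promoters of all genes tested, 9.5% of those of bright genes and 18.6% of all promoters in the table. A gene with several starts contributes several windows, some sharing the same match, so these shares are descriptions. Shown, for each gene of either group with a match, is the stretch around the matches of 1 window, the first along the chromosome that holds one. Pfkm has matches in 2 further windows, which are not printed. Each runs 5′ to 3′ in the direction of its gene with 25 bases on each side, and capitals mark the match, which reads TTATCA or TTATCT where it lies on the opposite strand.
Csf2rb2, higher, chr15:78305729-78305784, minus strand: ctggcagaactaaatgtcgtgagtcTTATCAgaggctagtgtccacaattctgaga
Fam234a, higher, chr17:26244425-26244480, minus strand: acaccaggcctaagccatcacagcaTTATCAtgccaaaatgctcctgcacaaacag
Icam4, higher, chr9:21029364-21029419, plus strand: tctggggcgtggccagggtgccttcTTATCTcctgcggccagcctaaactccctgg
Pfkm, higher, chr15:98092467-98092575, plus strand: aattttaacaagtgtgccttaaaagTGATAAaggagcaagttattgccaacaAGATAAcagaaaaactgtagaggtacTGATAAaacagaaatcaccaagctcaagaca
Ptdss2, higher, chr7:141131116-141131171, plus strand: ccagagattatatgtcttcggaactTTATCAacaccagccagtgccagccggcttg
Specc1, higher, chr11:62076925-62076980, plus strand: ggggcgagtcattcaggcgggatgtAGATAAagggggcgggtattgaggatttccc
Cbfa2t3, lower, chr8:122699197-122699252, minus strand: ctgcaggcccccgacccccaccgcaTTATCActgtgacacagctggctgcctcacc
Midn, lower, chr10:80149620-80149675, plus strand: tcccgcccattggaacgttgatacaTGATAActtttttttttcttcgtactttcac

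Pfkm was the gene with the most matches in 1 window, with 3, and Csf2rb2 and Fam234a came next after Csf2rb among the largest bright rises. The STAT motif TTCNNNGAA was in 16.1% of riser promoters and 4.0% of faller promoters, against 6.69% of those of all genes tested. The E box CACGTG was in 12.9% and 14.0% against 9.59%, the EGR motif (GCGGGGGCG or GCGTGGGCG) in 6.45% and 6.0% against 6.02%, and the SREBP motif TCACNCCAC in 3.23% and 0.0% against 1.18%. All were searched on both strands, and the interferon, estrogen and serum response elements were in 0 windows of either group. Both strands of the E box read the same, and the STAT motif does too.

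**Figure D3:**
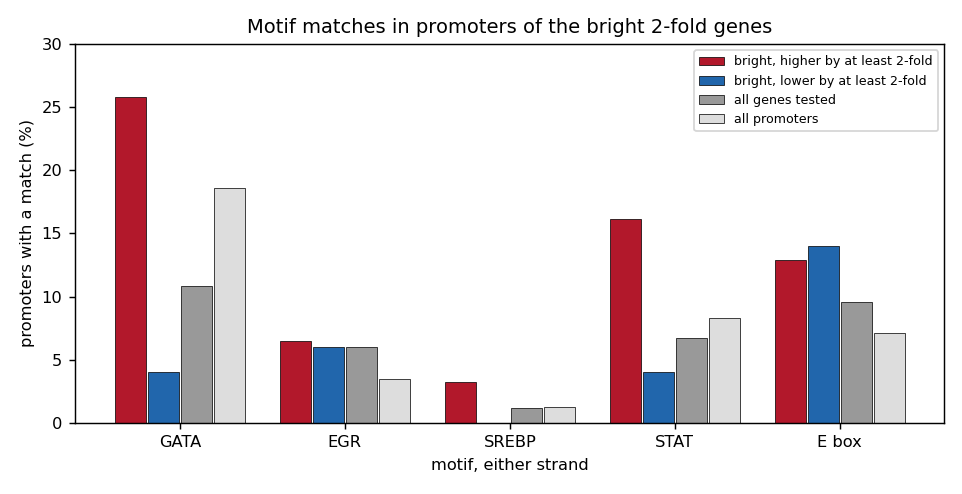
Share of promoter windows (%, vertical axis, from 0) that hold each of 5 motifs on either strand, for bright genes that rose or fell at least 2-fold, for all genes tested and for all promoters. The GATA motif was in 25.8% of the 31 windows of risers and 4.0% of the 50 windows of fallers, against 10.8% for all genes tested.

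Of 1653 intermediate genes, 131 rose (7.92%) and 333 fell (20.1%), with 18 (1.09%) and 30 (1.81%) past 2-fold. On the hybridisation control scale 70 were higher and 76 lower, and after quantile normalization 181 and 262. The median difference over all genes of this class was -0.10, against -0.04 for bright genes and 0.04 for those near the floor. The excess of falls therefore depends on the scaling. Mboat2, a lysophospholipid acyltransferase, read 5.49, 5.39 and 5.59 at 0 h and 7.52, 7.59 and 7.53 at 3 h, a difference of 2.06 (SE 0.075, adjusted p = 1.05e-10). Btn1a1, a butyrophilin, read 5.83, 5.95 and 6.08 and then 7.77, 8.04 and 7.82, a difference of 1.93. Rogdi rose by 1.87, the exchange factor Kalrn by 1.75, the spindle protein Fam83d by 1.70 and the glutamine transporter Slc38a5 by 1.70. All 6 lay wholly above their 0 h arrays, which the rule for ranking required. However, 6 of the 7 other probe sets of Kalrn, at levels from 1.6 to 3.4, were not called.

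The largest fall of this class was that of the predicted gene Gm13306 (-2.26), named only here because unnamed transcripts were not ranked. Relt, a TNF receptor family member, read 7.5, 7.54 and 7.59 and then 5.66, 5.82 and 5.80, a difference of -1.78 (SE 0.093, adjusted p = 2.87e-09). The RNA-binding protein Mex3a fell by 1.75, with 1.61 on its second probe set, and the receptor Heg1 fell by 1.62. Il4ra, the IL-4 receptor alpha chain, read 6.73, 6.61 and 6.53 and then 5.19, 5.24 and 5.15, a fall of 1.43. Ier3 and Ier2, genes that growth factors induce within minutes, fell by 1.49 and 1.41. The 3 h arrays of these genes all lay at or below 6.0, and the part of the undescribed background step in such low values was not tested.

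The largest single rise and fall were those of genes near the floor, where folds were least certain. Of 4047 such genes, 164 rose (4.05%) and 182 fell (4.5%), with 18 (0.445%) and 32 (0.791%) past 2-fold, and on the hybridisation control scale 84 were higher and 70 lower. With 1 array left out the rises numbered 104 to 242, the highest without 0 h replicate 3 and the lowest without 3 h replicate 3. Ajuba, a LIM-domain adaptor, read 3.13, 3.18 and 3.37 at 0 h and 6.87, 7.06 and 6.60 at 3 h, a difference of 3.61 (SE 0.39, adjusted p = 5.28e-06). Usp18, a protease that damps interferon signalling, read 3.73, 3.09 and 2.86 and then 6.30, 6.30 and 6.13, a difference of 3.02 (SE 0.20, adjusted p = 3.11e-08). Both came from about the 40th percentile of the arrays, 3.22 to 3.26, to above their 60th, 5.28 to 5.40. Gsdma rose by 2.02 and Efnb2, a ligand of EPH receptors, by 2.01, with 1.61, 0.08 and 0.15 on the other probe sets of Efnb2. Tspyl3 rose by 1.84 and the mitochondrial protein Mgarp by 1.73.

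Of genes that fell to near the floor, Gzmb, the protease granzyme B, read 6.29, 6.19 and 6.38 and then 3.59, 3.39 and 3.60, a difference of -2.76 (SE 0.11, adjusted p = 4.01e-10). Plxdc1 fell by 2.35, and the microtubule protein Map1a by 1.86, the zinc-finger factor Sall2 differed by -1.95 and the semaphorin receptor Plxna3 fell by 1.77. Socs3, an inhibitor of cytokine signalling, read 5.31, 5.40 and 4.74 and then 3.15, 3.06 and 3.23, a difference of -2.0. Its other probe sets differed by -1.02 and 0.16, and the second of these, used when probe sets with names ending in _x_at or _s_at were left out, did not pass the test (adjusted p = 0.516). Over the named genes called here, 67 had other probe sets, 116 in all, of which 56 were called in the same direction, 1 (Jund) in the opposite one and 59 not called.

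Gene lists were described by how many members passed the test, beside 11.2% of all genes rising, 14.7% falling and a median difference of -0.02 over all genes. Of 23 GATA-related and erythroid transcription factors, 8 rose and 10 fell, and with the hybridisation controls as the scale 4 and 6. Besides Lyl1, Cbfa2t3, Gata2 and Bach1, Fli1, an ETS factor of the megakaryocyte branch, rose by 0.95, and E2f2 and Tal1 fell by 0.99 and 0.76. The FOG1 gene Zfpm1 read 9.90, 9.79 and 10.10 and then 10.42, 10.55 and 10.37, a rise of 0.52 (SE 0.092, adjusted p = 0.00065). Klf1, the erythroid Kruppel-like factor, rose by 0.30, Gfi1b by 0.36 and Lmo2 by 0.25. Gata1 read 10.15, 10.17 and 10.30 and then 9.70, 9.69 and 9.67, a fall of 0.52 (SE 0.081, adjusted p = 0.000214). Neither Gata1 (-0.42, adjusted p = 0.253) nor Klf1 (0.40, adjusted p = 0.296) was called on the hybridisation control scale, and because no source used here places the Gata1 probe set on the disrupted gene or on the fusion, its level does not check the labels.

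Genes of KIT signalling were called in both directions, while of the immediate early genes called all but 1 fell. Kit, the stem cell factor receptor, read 10.07, 10.03 and 10.05 and then 9.78, 9.92 and 9.83. The difference of -0.21 did not pass the test (SE 0.13, adjusted p = 0.253), although the arrays did not overlap, and a second probe set fell by 0.60. With the mean of its probe sets Kit was lower by 0.40 (-0.40, adjusted p = 0.00183). Of 17 KIT and RAS-ERK feedback genes, 3 rose, led by Phlda1 (0.94), and 2 fell, 1 of the 2 falls being lost on leaving out any array but 0 h replicate 3. On the hybridisation control scale limma called 2 higher and 0 lower, also 0 lower at an unadjusted p under 0.05. Of 23 immediate early and EGR-NAB genes, 10 fell and 1, Btg2, rose. Next to Nab2, Jund, Klf10, Ier3 and Ier2, falls were measured for Klf6 (-0.94), Zfp36 (-0.81), Fosl1 (-0.66) and Srf (-0.54). Egr1, the factor that NAB2 restrains, differed by 0.03, and Fos, near the floor, by 0.56, neither passing the test. On the hybridisation control scale 8 of the list fell and 2 rose, and the rises numbered 2 without 0 h replicate 2 and 3 without 0 h replicate 3. Myc, which drives growth and division, read 10.95, 11.04 and 10.92 and then 10.24, 10.16 and 10.18, a fall of 0.78.

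In the cytokine list, 4 of 22 genes rose and 11 fell, 3 and 3 on the hybridisation control scale. The rises were Csf2rb, Csf2rb2, Stat5b (0.50) and Jak1 (0.40). Falls beside Socs3 and Il4ra were oncostatin M (Osm, -1.12) and genes that STAT5 induces, such as Cish (-0.69), Pim1 (-0.61) and Socs2 (-0.22). The erythropoietin receptor gene Epor fell by 0.36 and Stat5a by 0.34.

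The heme, globin and red cell membrane lists held more rises than falls. Of 8 heme synthesis enzymes 4 rose and 0 fell by limma, also with 0 falls at an unadjusted p under 0.05. Alas2, which starts the erythroid pathway, read 5.64, 5.94 and 5.96 and then 6.72, 6.56 and 6.67, a rise of 0.80 (SE 0.082, adjusted p = 2.94e-06), and Ppox rose by 0.57, Cpox by 0.34 and Uros by 0.30. Of the 8, 2 were higher on the hybridisation control scale, where Cpox was not called (adjusted p = 0.229). Of 5 globin chains, Hbb-b2 rose by 0.30 and the embryonic chain Hbb-bh1 by 0.94 from near the floor, while Hba-a2 differed by -0.06. Hbb-b2 was not called on the hybridisation control scale (adjusted p = 0.30) or when its probe sets were averaged (0.0755). Globin genes are near-identical copies, so which copy a probe set reads is uncertain. Of 18 membrane and blood group genes, 7 rose and 2 fell, 5 and 1 on the hybridisation control scale. Icam4 was followed by Dmtn, which binds spectrin and actin (1.06, from near the floor), Sptb (beta-spectrin, 0.86), Rhag (0.66) and Kel (0.60). Slc4a1, the band 3 anion exchanger, went the other way, from 6.37, 6.35 and 6.29 to 5.10, 5.27 and 4.90, a fall of 1.25 (SE 0.082, adjusted p = 3.11e-08) in arrays that did not overlap. Of 14 iron genes, Tfrc rose by 0.20 and Tfr2, Abcb6 and Slc11a2 fell by 0.48, 0.27 and 0.23, none of the 3 falls being called on the hybridisation control scale. The call of Abcb6 was lost without 3 h replicate 3 (adjusted p = 0.0529), and that of Slc11a2 on leaving out any array but 0 h replicate 3, with adjusted p from 0.0662 to 0.113.

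**Figure D4:**
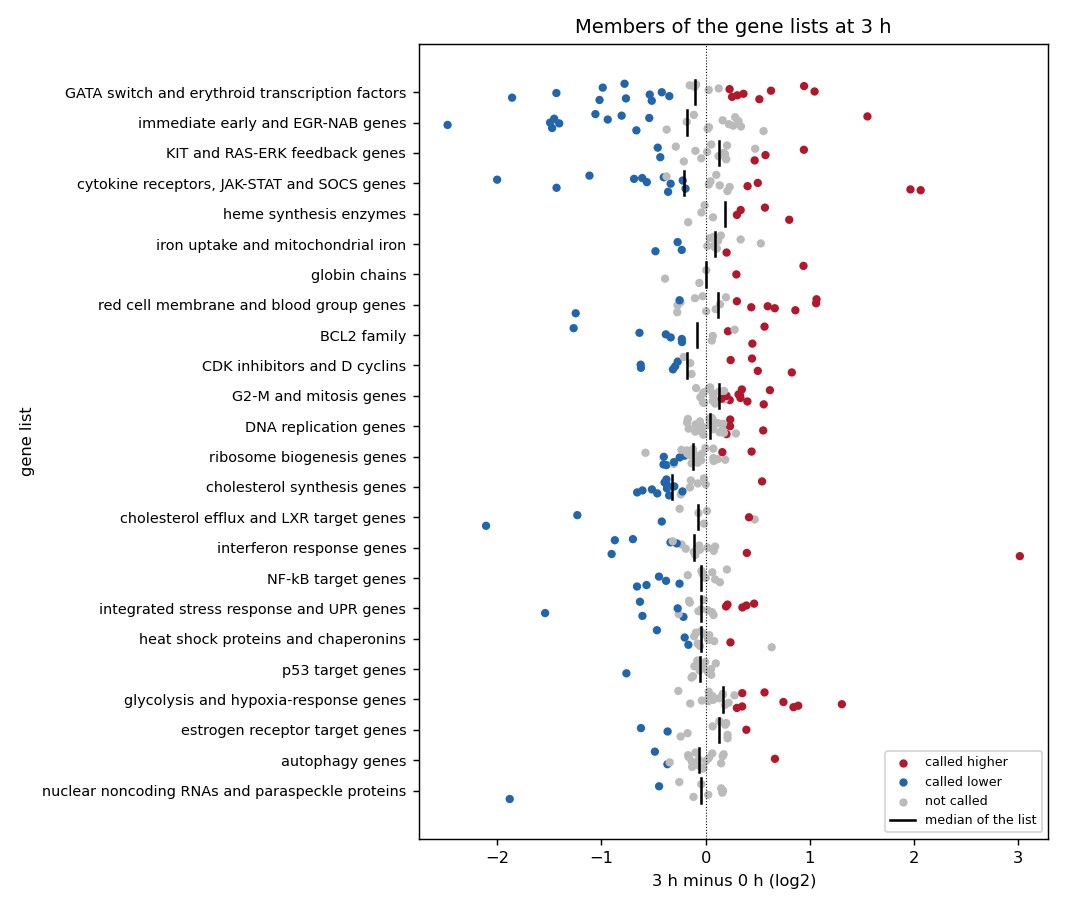
Difference between 3 h and 0 h (log2, horizontal axis) for the tested members of 24 gene lists (vertical axis), red where called higher, blue where called lower and grey where not called, with the median of each list as a black bar. Most medians lie within 0.2 of 0, and the median for cholesterol synthesis is -0.33.

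Cholesterol synthesis and glycolysis genes were called in opposite directions. Of 18 cholesterol synthesis genes 11 fell and 1, Ebp (0.54), rose, with a list median of -0.33. Mvd read 9.19, 9.02 and 9.13 and then 8.46, 8.57 and 8.33, a fall of 0.66, and Fdps, Fdft1 and Hmgcs1 fell by 0.61, 0.52 and 0.35. The sizes were small, and with the hybridisation controls as the scale 0 members were called lower by limma, 3 at an unadjusted p under 0.05, with a list median of -0.23. Of 9 cholesterol efflux and LXR target genes, Abca1, Scd1 (-1.23, near the floor) and Srebf1 (-0.42) fell and Lpcat3 rose by 0.42, with 2 lower and Srebf1 not called (adjusted p = 0.454) on the hybridisation control scale. Of 24 glycolysis and hypoxia-response genes, 8 rose and 0 fell by limma (10 and 0 at an unadjusted p under 0.05), and 5 rose on the hybridisation control scale. Besides Pfkm these were the hexokinases Hk2 (0.89) and Hk1 (0.35), the glucose transporters Slc2a3 (0.84) and Slc2a1 (0.30), Pfkfb4 (0.75), Bnip3 (0.57) and Ankrd37 (0.35). Lower glycolysis enzymes were not called, with Aldoa at 0.02, Ldha at 0.03, Pgk1 at 0.07 and Pkm at 0.07.

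Cell cycle genes held rises of G2-M genes and of an inhibitor at once. Cdkn1b, the CDK inhibitor p27, read 9.79, 9.82 and 10.02 and then 10.61, 10.73 and 10.78, a rise of 0.83 (SE 0.080, adjusted p = 1.81e-06). Cdkn2c (p18) rose by 0.50, and the D cyclins fell, Ccnd3 by 0.62, Ccnd1 by 0.62 near the floor and Ccnd2 by 0.29. The other probe sets of Ccnd1 differed by 0.36 and -0.37, and with their mean it was not called (limma adjusted p = 0.0881). Over that list of 12 genes 4 rose and 5 fell, 2 and 0 on the hybridisation control scale (3 and 2 at an unadjusted p under 0.05). Of 25 G2-M genes 10 rose and 0 fell by limma (12 and 0 at an unadjusted p under 0.05), from Nusap1 (0.62) and Ccna2 (0.56) to Aurkb (0.15), and 2 rose on the hybridisation control scale. Of 29 DNA replication genes 4 rose, led by the licensing factor Cdc6 (0.55), and 1 on the hybridisation control scale. That count was 1 to 7 when 1 of the 6 arrays was left out, 7 without 0 h replicate 3. Of the 29 genes 28 were bright, and 16% of all bright genes rose, so 4 rises are near that share. Of 30 ribosome biogenesis genes, 6 fell and 2 rose, and on the hybridisation control scale limma called 0, with 1 in each direction at an unadjusted p under 0.05. The falls numbered 3 to 4 with 1 array left out. All 30 were bright, and 19.3% of all bright genes fell, so 6 falls are near that share.

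In the BCL2 family, NF-kB, interferon and stress response lists the share called was above the 25.9% of all genes. Of bright genes alone, which made up 14 of the 19 stress response and 7 of the 12 BCL2 family genes, 16% rose and 19.3% fell. The part of brightness in the shares of these lists was not tested. In each list fewer were called on the hybridisation control scale, as over all genes, where 463 were higher and 285 lower against 1420 and 1871. Of 12 BCL2 family genes 6 fell and 3 rose, with the death-promoting Bbc3 (PUMA) down by 1.27 and Bid by 0.63, and Bnip3 up by 0.57. With 1 array left out the falls numbered 4 to 6 and the rises 1 to 2, and on the hybridisation control scale 1 was higher and 1 lower. Bid was not called there (adjusted p = 0.0959) or when its probe sets were averaged (0.0746). Of 13 NF-kB target genes 5 fell, led by its inhibitor Nfkbia (-0.66), but 2 to 4 with 1 array left out, 2 after quantile normalization and 3 after a median shift. On the hybridisation control scale limma called 0 of them lower, 2 at an unadjusted p under 0.05. Of 17 interferon response genes, 12 of them near the floor, 2 rose, Usp18 and Irf2 (0.40), and 5 fell, among them Irf1 (-0.90) and Dhx58 (-0.87), with 1 and 2 on the hybridisation control scale. The interferon-induced genes Mx1, Irf7, Ifit3, Rsad2 and Oas1a differed by -0.19, -0.11, -0.10, -0.06 and 0.02 and none passed the test. Of 19 stress response genes 5 rose, led by the chaperone gene Dnajb9 (0.47), and 5 fell, among them Trib3, Cebpb (-0.63), Atf5 (-0.61) and Atf4 (-0.21), with 0 and 1 by limma on the hybridisation control scale (3 and 3 at an unadjusted p under 0.05). The falls numbered 3 on leaving out any array but 0 h replicate 2, and the rises 3 without 3 h replicate 1.

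Of 13 p53 target genes only Trp53inp1 was called, a fall of 0.76, and Cdkn1a differed by -0.13. Of 15 heat shock genes Hsp90aa1 rose by 0.24, and Bag3, Dnajb1 and Hspa4 fell by 0.47, 0.20 and 0.17. The other probe sets of Hsp90aa1 were not called, and those at 12.52 and 11.74 at 0 h differed by 0.001 and 0.03. With the mean of its probe sets Hsp90aa1 was not called either (0.14, limma adjusted p = 0.248). The rise of Hsp90aa1 was lost without 0 h replicate 1 or 2 or without 3 h replicate 2 or 3, with adjusted p from 0.0641 to 0.0747. The call of Dnajb1 was lost without 0 h replicate 1 or 3 h replicate 3 (adjusted p = 0.0823 and 0.0564). Hsp90aa1, Bag3 and Dnajb1 were not called on the hybridisation control scale (adjusted p = 0.423, 0.361 and 0.891), and limma called 0 of the list lower, also 0 at an unadjusted p under 0.05. Of 20 autophagy genes Atg4d rose by 0.67, and Tfeb and Sqstm1 fell by 0.49 and 0.37, the call of Tfeb being lost without 0 h replicate 1 or 3 or 3 h replicate 1 (adjusted p from 0.0556 to 0.0924). The falls of that list numbered 4 without 0 h replicate 2. On the hybridisation control scale limma called 0 lower, also 0 at an unadjusted p under 0.05, with an adjusted p of 0.342 for Tfeb and 0.587 for Sqstm1. Of 11 genes known as estrogen receptor targets in other tissues, Xbp1 rose by 0.39 and Ccnd1 and Ctsd fell by 0.62 and 0.36, and the estrogen-induced Tff1 and Stc2 stayed near the floor at 0 h and 3 h. Limma called 0 of the 11 on the hybridisation control scale, with 1 in each direction at an unadjusted p under 0.05 and adjusted p of 0.147, 0.131 and 0.603 for Xbp1, Ccnd1 and Ctsd. Of 9 nuclear noncoding RNA and paraspeckle genes Neat1 and Snhg3 (-0.45) fell, the call of Snhg3 being lost without 3 h replicate 2 (adjusted p = 0.0631) and on the hybridisation control scale (0.402), while Malat1 differed by -0.12 and the paraspeckle proteins Sfpq, Nono and Pspc1 by 0.03, 0.16 and 0.17.

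Markers of other blood lineages were low on average, though some, such as Cpa3, stood well above the floor, and some moved. The 12 mast cell and basophil markers read had a mean level of 4.28 to 4.42 on the 0 h arrays and 3.89 to 3.95 on the 3 h arrays, with 7 of them under 5 at both times. Of 8 tested, 4 fell, Gzmb, Cpa3 (8.08 to 7.16), Ms4a2 (5.57 to 4.69) and Srgn (6.78 to 6.42), and 0 rose by limma, also 0 at an unadjusted p under 0.05. Cma1, Mcpt8 and Tpsb2, proteases that define these cells, were near the floor at both times. The 11 megakaryocyte markers averaged 4.29 to 4.47 at 0 h and 4.44 to 4.52 at 3 h. Of 7 tested, Tubb1 rose by 1.73 from 2.43 and Itgb3 by 0.52, while Nbeal2 and Itga2b fell by 0.70 and 0.45. Of 5 granulocyte and macrophage markers tested Ms4a3 rose by 0.64 near the floor, a call lost without 0 h replicate 2 or 3 h replicate 2 or 3, and that of Nbeal2 was lost without 0 h replicate 1 (adjusted p = 0.0655) and on the hybridisation control scale (0.0739). Limma called 0 of 7 lymphoid markers, with 2 higher and 1 lower at an unadjusted p under 0.05. The part of such cells in the changes of Gzmb, Fli1 and the other genes above was not tested.

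Levels at later times show how long the first changes lasted, set side by side without a test because the times share the 0 h arrays. Csf2rb stood at 11.80, 12.32, 12.62 and 12.56 at 7, 14, 21 and 30 h, and Csf2rb2 at 10.93, 11.83, 12.62 and 12.66. Fam234a, Atp1b2 and Btg2 also went on up, to 11.28, 11.96 and 10.52 at 30 h, while Nxpe2 was highest at 21 h (9.98) and stood at 9.29 at 30 h. At 30 h Lyl1 stood at 4.61, Nab2 at 4.81, Abca1 at 5.47 and Inafm1 at 6.76, all lower than at 3 h, though Abca1 had been lower still at 21 h (4.55). Neat1 ran the other way after its fall, from 7.98 at 3 h to 8.25, 9.82, 11.55 and 12.52, above its level of 9.86 before estradiol. Gda went from 6.17 at 3 h to 7.48 at 30 h, against 7.95 before estradiol. Cbfa2t3, Jund and Trib3 also stood higher at 30 h than at 3 h, at 10.65, 11.51 and 8.52, against 10.69, 10.99 and 7.89 before estradiol. Slc4a1, at 5.09 at 3 h, reached 6.48 at 7 h and 12.42 at 30 h. Ajuba was highest at 7 h (7.46) and at 30 h, with 3.35, was close to where it began. At 14 h its 3 arrays differed widely, with an SD of 1.2.

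**Figure D5:**
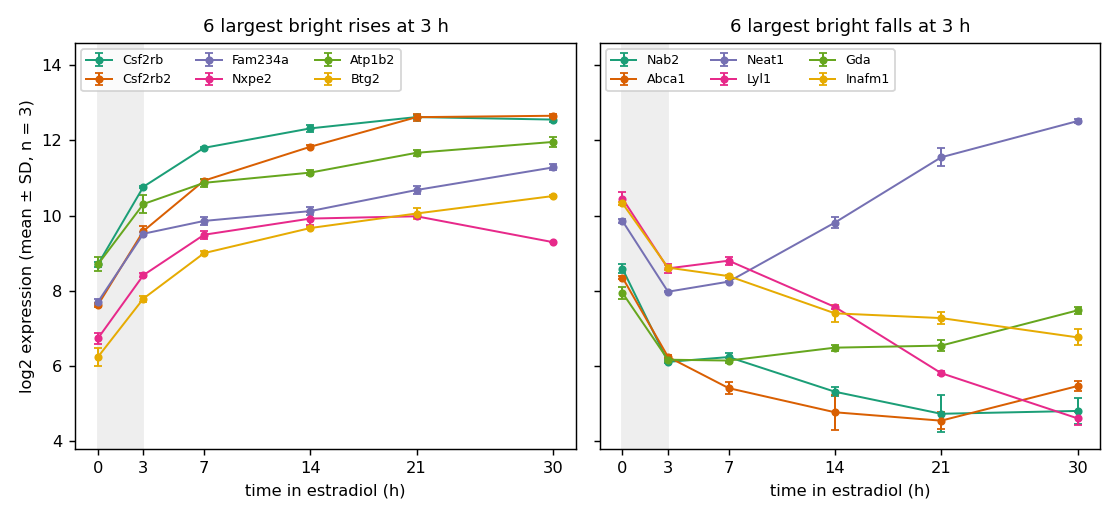
Log2 expression (mean with SD bars, n = 3 arrays) at 0, 3, 7, 14, 21 and 30 h in estradiol for the 6 largest bright rises and 6 largest bright falls at 3 h, with the first 3 h shaded. All 6 risers stay above their 0 h level, while among the fallers Neat1 goes from 7.98 at 3 h to 12.52 at 30 h and Gda from 6.17 to 7.48.

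Some of the 2-fold genes were neighbours on a chromosome. Of the 172 genes, 159 could be placed as protein-coding genes, and 5 pairs stood next to each other, each pair moving the same way. How many such pairs as many genes picked at random would give was not worked out, so the count is a description only. Csf2rb and Csf2rb2 on chromosome 15 and Tmem120b (1.64) with Rhof (1.52) on chromosome 5 rose. Inafm1 with Bbc3 on chromosome 7, Tespa1 with Vmn2r84 on chromosome 10 and Soga3 with 9330159F19Rik on chromosome 10 fell. Vmn2r84 fell by 1.5 from 4.54, near the floor, and belongs to a family of similar receptor genes, so its probe set is uncertain.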

How the data were processed

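The authors deposited log2 expression values for 45101 probe sets of an Affymetrix mouse array. Values up to 14.4 set the log base. The steps of probe summary, background correction and scaling were not given in the sources used here. Per the labels' protocols Trizol was used for extraction, with a biotin label. The platform annotation gives 1 gene for 34945 probe sets, several for 932 and none for 9160, beside 64 controls, and a gene was read by its brightest single-gene probe set over all arrays. Of 18193 genes, 12719 exceeded the 40th percentile of their array at least 3 times and were tested. All 18 arrays were fitted with limma 3.58.1 in R 4.3.3, a mean per time and 12 residual degrees of freedom, and 3 h was compared with 0 h by two-sided tests with Benjamini-Hochberg adjustment over all genes tested. Precision is limited by the number of arrays (n = 3 per time), and the median SE of a log2 difference was 0.10. Named genes were the 14 largest rises and falls of bright genes, 6 of each in the other classes, up to 3 called members of each of 29 lists and 7 genes followed whatever their result, among called genes with separate arrays that are not unnamed transcripts (such as Rik and Gm symbols). Other genes were named after their values were seen. The genes, lists and tests were chosen with earlier results of these data known.

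On data simulated for this comparison with 12719 genes and 200 changed, 24% of the 1.25-fold changes were called, and 72% of those of 1.5-fold, 90% of those of 2-fold and 100% of those of 4-fold. Unchanged genes gave 7 calls. Far fewer genes were changed there than the 25.9% called in the real data. The adjusted p depends on that share, so these recovery rates need not hold for the real comparison. The simulated noise was drawn separately for each gene and array, with no shift shared by a whole array. The 7 calls therefore do not measure errors from scaling in the real data. Same-numbered arrays of the 2 times deviated from their group means with correlations of 0.11, -0.06 and 0.07, so the numbers were not taken to pair them, and 0 pairs of arrays were identical. Promoters are from RefSeq on GRCm38.p6. The alternatives were 3 other scalings, 2 other filters, other uses of probe sets, 6 arrays only, a replicate block, a variance both trended and robust, a limit of 8 for bright genes and leaving out each array.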

Additional observations from a re-analysis of the deposited data

Results flagged for a closer look

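Apart from the probe set shared by Csf2rb and Csf2rb2, those that the annotation assigns to several genes or to none were used in no comparison above. Some of them moved at 3 h. Of 655 tested probe sets with several genes, 30 were higher and 35 lower (limma, adjusted p under 0.05), with 3 and 3 past 2-fold. Among these, the probe set shared by Serpinb9e, Serpinb9f, Serpinb9g and Serpinb9h fell by 1.59, from 7.95 to 6.35. Of 4526 tested probe sets with no gene, 252 were higher and 281 lower, with 16 and 27 past 2-fold. The largest of their falls went from 6.37 to 3.83 (-2.54) and from 6.81 to 4.41 (-2.40), and a bright one went from 10.18 to 9.08 (-1.11). Both kinds of probe set, adjusted apart from the genes, had smaller shares called than the genes tested above, of which 11.2% were higher and 14.7% lower.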

How the results depend on the processing

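Scaled on the hybridisation controls, 463 genes were higher and 285 lower, 100 of them higher by at least 2-fold, and among bright genes 308 were higher and 136 lower. Of the 120 named genes 34 lost their call on that scale and 0 changed direction. Rises that lost it became larger, such as Klf1 (0.30 to 0.40) and Cpox (0.34 to 0.43), while falls such as Gata1 became smaller (-0.52 to -0.42). The controls spread from 11.67 to 12.12 on the 0 h arrays, and that spread enters every gene on this scale. Testing every probe set on its own gave 2341 higher and 2839 lower probe sets, 108 and 167 of them by at least 2-fold, because more features were tested. With 1 array of either time left out, 1070 to 1457 genes were higher and 1312 to 1690 lower, 63 to 80 and 104 to 120 by at least 2-fold, and 857 to 1082 bright genes were higher and 935 to 1207 lower. With the replicate block 1398 were higher and 1813 lower, and of the named genes Tnip1 alone lost its call (adjusted p = 0.0599). The other counts over all genes and over bright genes stayed within 1.5 times of the main ones under every other scaling, filter, probe set rule and variance tried. Counts of the gene lists were run only under the scalings and with arrays left out. With quantile normalization the falls of NF-kB targets went from 5 to 2, those of the KIT and autophagy lists from 2 to 1, and the rises of immediate early genes from 1 to 2. With the median shift the falls of NF-kB targets went to 3 and the rises of autophagy genes from 1 to 2. Without _x_at and _s_at probe sets the difference of Socs3 became 0.16. Kit passed the test with the mean of its probe sets and with only the 6 arrays at 0 h and 3 h (adjusted p = 0.0326). The cause of these shifts was not tested. The number of arrays and an unknown background step limit what can be said of genes near the floor, whose median SE was 0.15 against 0.075 for bright genes.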
